A study of Homo sapiens with 2 samples.

Results

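Transcripts of homologous recombination and Fanconi anaemia genes were compared between EBC1, a human non-small cell lung cancer line that depends on an amplified MET receptor gene, and its drug-resistant subline EBC1-R. The genes were a fixed list of 35 DNA repair genes. Of these, 30 were measured by a probe set annotated to exactly 1 gene symbol, out of 18377 genes in all. RAD51D had only a probe set that also names a readthrough gene, and RBBP8, BRCA2, FANCA and FANCD2 were not analysed here. EBC1-R arose from EBC1 cells exposed to rising concentrations of a MET inhibitor, named in its label as PHA-665752, and was kept in 3 µM of it. The labels give no inhibitor for EBC1 and do not say whether EBC1-R is a clone, and resistance and current exposure cannot be told apart in this design. Each group was 1 whole-transcript array, so the groups could not be tested against each other, single values carry no replicate error, and the number of arrays limits the precision.

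Homologous recombination repairs broken DNA by copying an intact sister chromatid and acts mainly in S and G2 phase. The break ends are trimmed by nucleases, a recombinase is loaded on the exposed strand by the BRCA proteins and their partners, the filament invades the sister, and the joined molecules are then taken apart. The Fanconi pathway recognises crosslinks between the strands: a core complex attaches ubiquitin to the FANCI and FANCD2 pair, and the lesion is handed to nucleases and to recombination. The kinases ATM and ATR, with CHEK2 and CHEK1 downstream of them, signal the damage and hold the cell cycle. Many of these genes are transcribed with the cell cycle, and tumours that lose them are known for sensitivity to platinum drugs and PARP inhibitors.

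The share of the list that was lower in EBC1-R was near that of all genes, while its members differed among themselves. Levels are log2 intensities as deposited, and a difference is the EBC1-R level less the EBC1 level on that scale. Of the 30 measured genes 17 were lower in EBC1-R, against 55.5% of all genes, and 13 were higher, against 43.3%. The median difference was -0.11, beside -0.03 over all genes. EXO1 and CHEK1 were at least 1.5-fold lower, as were 3.16% of all genes, and no member was at least 1.5-fold higher, as were 4.41%. Among genes above the level filter described next, these shares were 5.5% and 7.03%. Of the 26 members that passed that filter 15 were lower in EBC1-R (57.7%), against 50.2% of all genes that passed it. None reached 2-fold, which 0.887% of all genes did in the lower and 1.26% in the higher direction.

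The spread had a lower tail. The middle 50% of the members lay between -0.41 and 0.08, and that of all genes between -0.17 and 0.13. Among the 9189 genes of the whole table that passed a level filter (a higher value of at least 7.41, the median of the genes' higher values), the middle 50% lay between -0.20 and 0.23. For the members that passed it, the middle 50% lay between -0.43 and 0.08. Past a limit of 0.4 log2 units, set after the values were seen, 8 members were lower (EXO1, CHEK1, BRCA1, RAD54L, XRCC3, XRCC2, FANCI and MUS81) and 2 were higher (FANCL and FANCF). Over all genes 7.03% were lower and 8.71% higher by that much, and 11.3% and 13.3% of those above the level filter. Of the 30, 26 passed the level filter, with a median difference of -0.15 beside -0.0022 over all genes that passed it. EXO1, RAD54L and XRCC3 did so through EBC1 alone and EME1 through EBC1-R alone. The median, the share lower and the middle 50% of these 26 are therefore partly set by the differences themselves. All members were read by 1 probe set each, so none has a second reading on the same arrays. Where genes above the filter had several (374 genes), their differences scattered around the gene's own mean with a pooled SD of 0.16. This SD holds no variation between cultures.

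**Figure D1:**
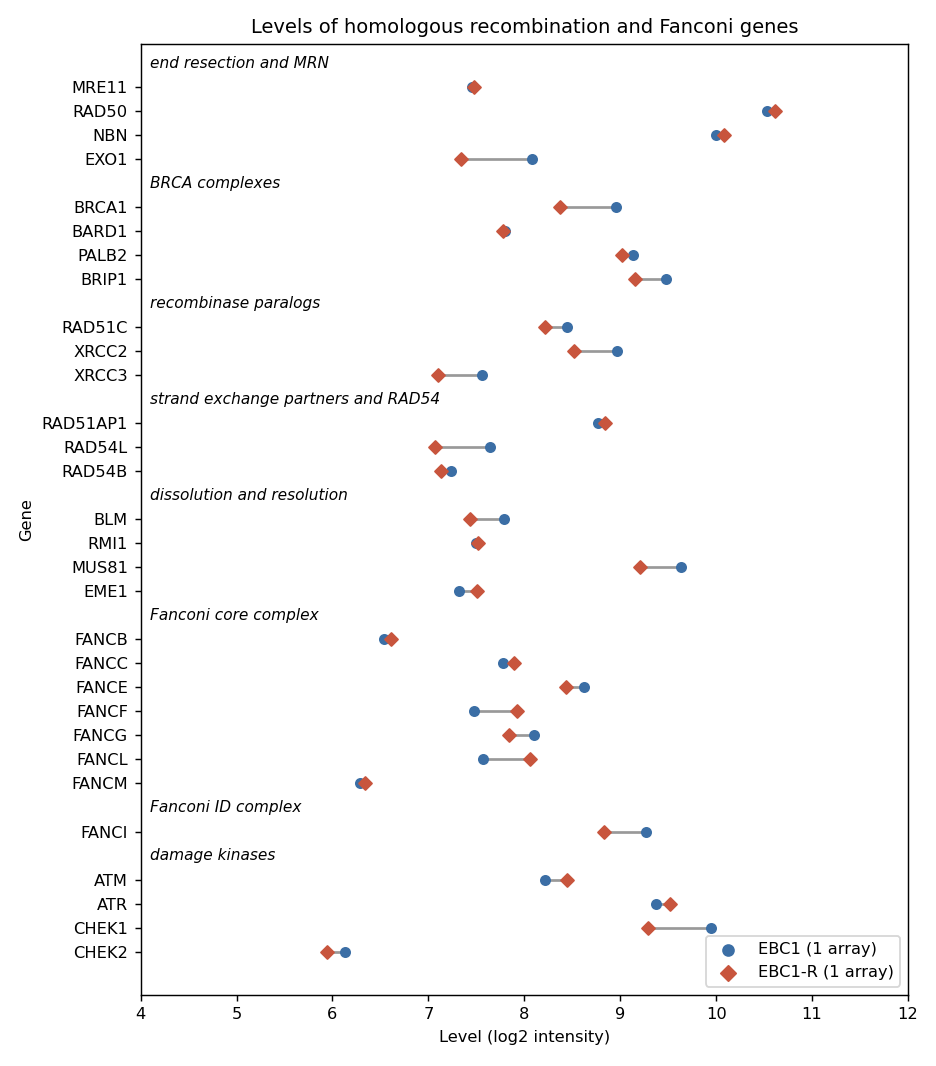
Level of each of the 30 measured genes (log2 intensity, horizontal axis) in EBC1 (circles) and EBC1-R (diamonds), 1 array each, grouped by role; levels of different genes come from different probes and are not comparable with each other. The long lines to the left belong to EXO1, BRCA1, RAD54L and CHEK1, and those to the right to FANCF and FANCL.

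The promoter windows of the 4 members with the largest differences above the level filter are shown because these genes carry the lower tail of the list. They come from RefSeq (GRCh38.p14), run 5′ to 3′ on the gene's strand, and span 250 bases before to 50 after a transcription start. Where several starts are listed (2 for EXO1, BRCA1 and RAD54L, 3 for CHEK1), the innermost is given. Capitals mark matches on either strand to the E2F-type core TTCCCGC or TTGGCGC, the CHR-type TTTGAA or TTTAAA, and CCAAT, which NF-Y binds.
EXO1 (chr1:241848481-241848780, plus strand): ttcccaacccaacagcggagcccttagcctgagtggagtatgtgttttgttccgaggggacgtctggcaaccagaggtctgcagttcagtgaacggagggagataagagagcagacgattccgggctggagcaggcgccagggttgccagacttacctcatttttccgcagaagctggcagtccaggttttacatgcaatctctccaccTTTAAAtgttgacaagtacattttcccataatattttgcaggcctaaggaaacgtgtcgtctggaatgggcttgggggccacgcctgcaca
CHEK1 (chr11:125626106-125626405, plus strand): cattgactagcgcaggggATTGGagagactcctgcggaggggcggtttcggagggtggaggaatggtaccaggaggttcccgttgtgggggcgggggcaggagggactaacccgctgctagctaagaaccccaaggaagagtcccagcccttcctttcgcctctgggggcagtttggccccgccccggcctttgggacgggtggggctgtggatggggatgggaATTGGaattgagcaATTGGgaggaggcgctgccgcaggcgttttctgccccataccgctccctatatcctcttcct
BRCA1 (chr17:43125315-43125614, minus strand): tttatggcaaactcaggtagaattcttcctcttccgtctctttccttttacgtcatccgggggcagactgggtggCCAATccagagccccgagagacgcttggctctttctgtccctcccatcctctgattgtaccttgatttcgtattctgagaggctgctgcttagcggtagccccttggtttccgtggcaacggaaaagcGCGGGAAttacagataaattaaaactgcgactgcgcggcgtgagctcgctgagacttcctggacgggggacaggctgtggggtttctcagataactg
RAD54L (chr1:46247513-46247812, plus strand): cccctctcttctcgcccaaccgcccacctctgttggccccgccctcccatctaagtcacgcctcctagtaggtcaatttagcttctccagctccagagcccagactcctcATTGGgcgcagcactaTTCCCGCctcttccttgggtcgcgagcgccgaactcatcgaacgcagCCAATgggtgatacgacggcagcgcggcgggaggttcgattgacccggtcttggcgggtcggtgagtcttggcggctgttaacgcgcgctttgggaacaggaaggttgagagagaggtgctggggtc
The BRCA1 window held GCGGGAA, the reverse complement of an E2F-type core, 47 bases before the start, and CCAAT 175 bases before it. The RAD54L window held TTCCCGC 124 bases before the start, with a CCAAT match on either side of it. The CHEK1 window held 3 matches to ATTGG, the reverse complement of CCAAT, and no other, and the EXO1 window a single TTTAAA, 41 bases before the start.

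Genes that cut and trim broken ends differed unequally. EXO1, the exonuclease that extends resection, stood at 8.08 in EBC1 and 7.34 in EBC1-R. Its difference of -0.75, 1.68-fold lower, was the largest of the list, and 3.46% of genes above the level filter had a lower one. The subunits of the MRN complex, which detects break ends, were nearly level between the arrays. MRE11, its nuclease, stood at 7.45 in EBC1 and 7.47 in EBC1-R. RAD50, its ATPase, was at 10.53 and 10.61, and NBN, which recruits ATM, at 10.00 and 10.08. All of these MRN differences, 0.02, 0.09 and 0.08, were smaller than the SD between probe sets of 1 gene.

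All 4 measured genes of the BRCA complexes were lower in EBC1-R, against 55.5% of all genes, and by very unequal amounts. BRCA1, a ubiquitin ligase and scaffold of recombination, went from 8.96 to 8.38. Its difference of -0.584 fell just short of the 1.5-fold limit of 0.585, and under quantile normalization of the arrays BRCA1 and RAD54L passed it too, making 4 members in place of 2. BARD1, its obligate partner in the ligase, was at 7.80 and 7.77. The heterodimer's genes therefore differed unequally between the arrays, by -0.58 for BRCA1 and -0.03 for BARD1. PALB2, which bridges BRCA1 to BRCA2, stood at 9.13 in EBC1 and 9.02 in EBC1-R. The helicase gene BRIP1, whose product binds BRCA1, went from 9.47 to 9.16, 1.25-fold lower.

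The paralogs of the recombinase, which stabilise its filament, were lower in all 3 measured cases, with a median difference of -0.44. The share of all genes lower in EBC1-R was 55.5%. XRCC3 stood at 7.56 in EBC1 and 7.10 in EBC1-R, 1.38-fold lower. XRCC2, of another paralog complex, was at 8.96 and 8.52, 1.36-fold lower. RAD51C, which sits in both complexes, was the least different of them, at 8.45 and 8.21. The probe set shared by RAD51D and its readthrough gene gave 7.90 and 7.66, a difference of -0.24, and is not counted among the 30.

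Among the genes that act on the formed filament, RAD54L differed most. RAD54L, a translocase that drives strand invasion, stood at 7.65 in EBC1 and 7.07 in EBC1-R, 1.49-fold lower. Its paralog RAD54B was at 7.24 and 7.13, under the level filter on both arrays. RAD51AP1, which stimulates the same step, was at 8.77 and 8.84. RAD54L thus differed by -0.58, RAD54B by -0.11 and RAD51AP1 by 0.07.

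Genes for taking joint molecules apart were split within their complexes. BLM, the helicase that dissolves double junctions, stood at 7.79 in EBC1 and 7.43 in EBC1-R, 1.28-fold lower, whereas RMI1, its cofactor, was at 7.50 and 7.52. MUS81, the nuclease that cleaves junctions, was at 9.63 and 9.20, 1.35-fold lower. EME1, the non-catalytic partner without which MUS81 does not cut, was at 7.32 and 7.51, 1.14-fold higher. Of either pair, 1 gene was lower and the other was level or slightly higher.

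In the Fanconi core complex 5 of 7 measured members were higher in EBC1-R, against 43.3% of all genes, with a median difference of 0.08. Among them FANCB, FANCC and FANCM differed by less than 0.16, the SD between probe sets of 1 gene. That SD comes from genes above the level filter, which FANCB and FANCM did not pass. FANCL, the ubiquitin ligase subunit, had the highest difference of the whole list: 7.57 in EBC1 and 8.06 in EBC1-R, 1.40-fold higher. FANCF, an adaptor within the complex encoded by a gene without introns, was at 7.48 and 7.93, 1.37-fold higher. For FANCL, 90.1% of genes above the level filter had a lower difference, and for FANCF 88.8%, and 95% of those genes lay between -0.85 and 0.92. FANCC stood at 7.78 in EBC1 and 7.89 in EBC1-R. FANCB, which forms the catalytic module with FANCL, was at 6.53 and 6.61, and FANCM, the translocase that anchors the complex to DNA, at 6.28 and 6.34. These FANCB and FANCM levels were under the filter on both arrays. FANCE, which contacts FANCD2, was lower, at 8.62 and 8.44, and FANCG at 8.11 and 7.84.

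FANCI, 1 member of the pair that the core complex ubiquitinates, was lower in EBC1-R, in contrast to the ligase subunit. It stood at 9.27 in EBC1 and 8.83 in EBC1-R, 1.35-fold lower. Substrate and ligase subunit thus differed in opposite directions, by -0.43 for FANCI and 0.49 for FANCL, on single arrays.

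The checkpoint kinase CHEK1 was the second member past 1.5-fold. CHEK1 carries the ATR signal and restrains CDK activity, and it went from 9.95 in EBC1 to 9.29 in EBC1-R, 1.57-fold lower. The upstream kinases were slightly higher. ATR, which senses stalled forks, was at 9.37 and 9.52, and ATM, which senses breaks, at 8.22 and 8.45, 1.17-fold higher. CHEK2, the effector of ATM, was at 6.13 and 5.95, under the level filter on both arrays.

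**Figure D2:**
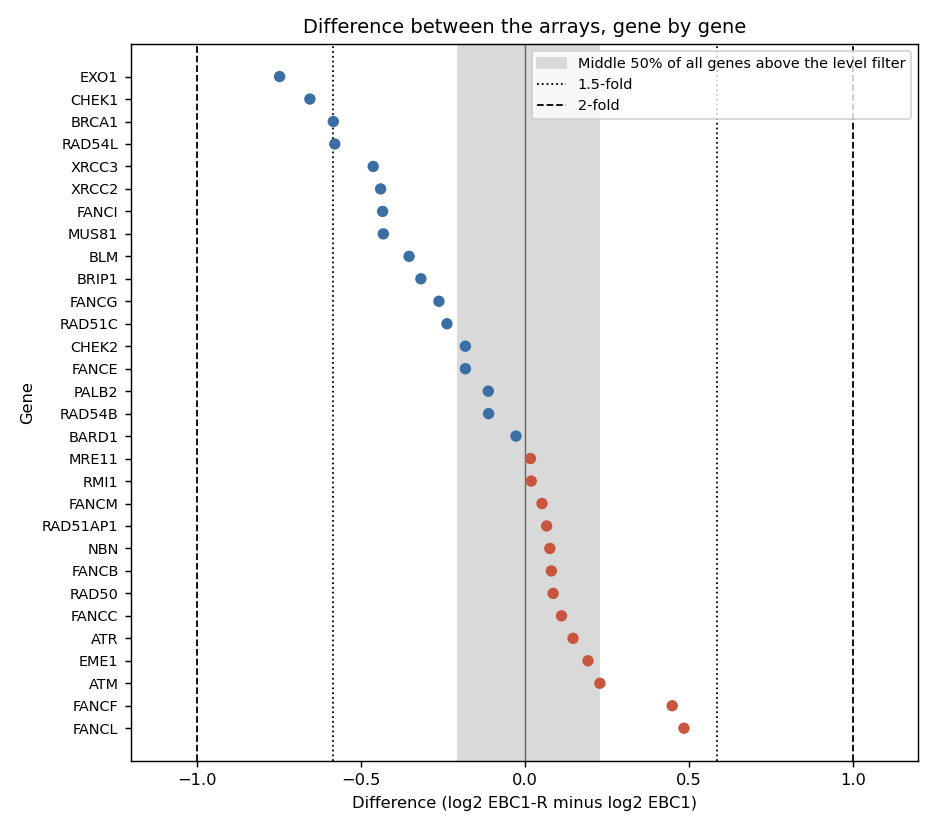
Difference between the arrays (log2 EBC1-R minus log2 EBC1, horizontal axis) for each of the 30 measured genes, sorted from lowest to highest; the grey band is the middle 50% of the 9189 genes above the level filter, and dotted and dashed lines mark 1.5-fold and 2-fold. EXO1 and CHEK1 lie left of the 1.5-fold line, BRCA1 and RAD54L lie on it, and no gene reaches it on the right.

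Other genes of the same pathways, from a list of 42 written beside the members, had a median difference of -0.06 over 36 measured. Of these 23 were lower, 3 of them at least 1.5-fold, and 13 were higher, 2 of them at least 1.5-fold. The shares of all genes were 55.5% lower, 3.16% at least 1.5-fold lower, 43.3% higher and 4.41% at least 1.5-fold higher. RAD52, which anneals single strands, was far outside the range of the 30 members. It stood at 8.64 in EBC1 and 10.17 in EBC1-R, 2.88-fold higher. The recombination accessory factor SFR1 was 1.83-fold lower (9.53 and 8.65), and HROB, which loads a helicase at recombination sites, was 1.54-fold lower (8.16 and 7.54). The helicase gene WRN was 1.60-fold higher (7.72 and 8.40). Of 26 further damage signalling genes, 15 were lower and ABRAXAS1, a scaffold of a BRCA1 complex, was alone past 1.5-fold, 1.52-fold higher (7.92 and 8.52).

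Cell cycle genes were lower on the same arrays, more of them than of the repair genes. DNA replication genes were lower in 34 of 43 cases, 11 at least 1.5-fold, with a median of -0.35. Mitosis genes were lower in 27 of 29, 5 at least 1.5-fold, with a median of -0.34. Of all genes 55.5% were lower and 3.16% at least 1.5-fold lower, and of those above the level filter 50.2% and 5.5%. By 0.4 or more, 17 of the replication and 14 of the mitosis genes were lower and none was higher, against 8 and 2 of the 30 repair genes. The shares of all genes were 7.03% lower and 8.71% higher by that much. MKI67, the usual proliferation marker, stood at 9.70 in EBC1 and 8.95 in EBC1-R, and RRM2, of nucleotide supply, was 1.92-fold lower. The cyclin CCNE2, which lies within 5 measured genes of RAD54B on chromosome 8, was 2.32-fold lower, and MYBL2, a transcription factor of the late cell cycle, 2.21-fold lower. They belong to a list of 27 cell cycle regulators of which 21 were lower and 6 higher, with a median of -0.28. CDKN1A, an inhibitor of the cell cycle, was 2.13-fold lower in the same list (10.03 and 8.94), and E2F7, a repressor, 1.97-fold lower. Whether fewer dividing cells or less transcript per cell lie behind such levels cannot be told apart in bulk RNA, and the part of the cell cycle in the levels of EXO1, CHEK1 or BRCA1 was not tested.

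**Figure D3:**
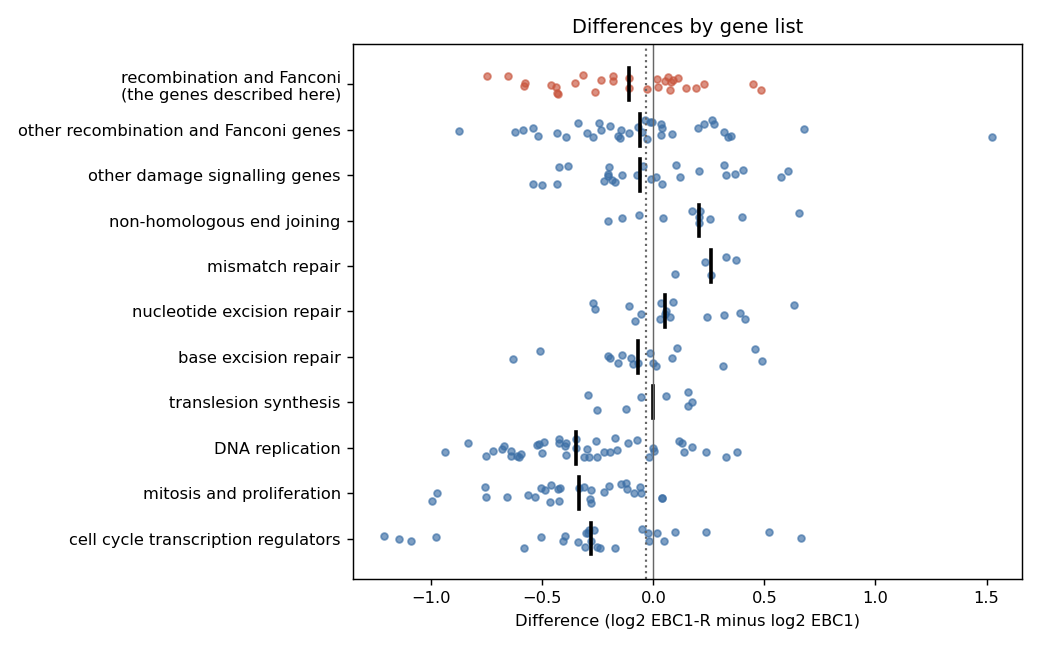
Difference of each measured gene (log2 EBC1-R minus log2 EBC1, horizontal axis) by gene list, with the 30 recombination and Fanconi genes on top; black bars are list medians and the dotted line is the median of all genes, -0.03. The median of the top row, -0.11, lies between that line and the medians of DNA replication, -0.35, and mitosis, -0.34.

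The neighbours of the lower members on the chromosome had medians on either side of 0. The 5 measured genes on each side of every member were taken in RefSeq order, without the level filter. Low-level genes are thus among them and can hold these medians near 0. Over the 8 members lower by 0.4 or more, the median difference of these 10 neighbours ran from -0.17 (XRCC3) to 0.25 (BRCA1), and over all 30 members from -0.20 to 0.28. EXO1 at -0.75 had neighbours with a median of 0.02, and none of the 10 was 1.5-fold different. CHEK1 at -0.66 had neighbours with a median of -0.04, again with none 1.5-fold different.

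For FANCL and RAD51AP1, 3 of 10 neighbours were at least 1.5-fold higher. Near FANCL on chromosome 2, REL, a subunit of NF-kB, was 2.79-fold, PUS10 2.10-fold and the adjacent kinase VRK2 1.54-fold higher. PUS10 was under the level filter on both arrays. BCL11A and PAPOLG, which lie between FANCL and REL, differed by 0.04 and 0.25. On chromosome 12, FERRY3 was 1.60-fold, DYRK4 1.57-fold and AKAP3 1.52-fold higher around RAD51AP1, with DYRK4 under the level filter on both arrays. TIGAR was 1.49-fold and NDUFA9 1.35-fold higher. The remaining neighbours (CCND2, FGF23, FGF6, GALNT8 and KCNA6) were level or slightly lower, and under the filter on both arrays. RAD51AP1 itself, between FERRY3 and DYRK4, differed by 0.07. RAD52, nearer the end of the same arm and examined after its value was seen, had 6 of 10 neighbours at least 1.5-fold higher, with a median of 0.85, against 0.15 for FANCL. WNK1 on 1 side was 2.42-fold and ERC1 on the other 2.87-fold higher. Copy number was not measured on these arrays.

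**Figure D4:**
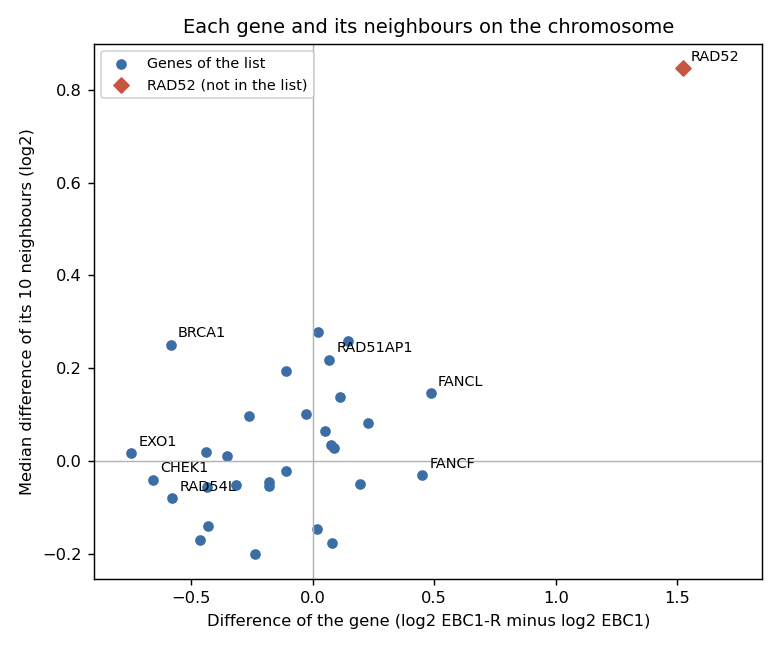
Difference of each gene (horizontal axis) against the median difference of the 10 genes beside it on the chromosome (vertical axis), both log2 EBC1-R minus log2 EBC1, for the 30 members and RAD52. The neighbour medians of the members stay between -0.20 and 0.28, while RAD52 stands apart at 1.52 with a neighbour median of 0.85.

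Promoter letters were compared over the 27 members with a RefSeq window (NBN, RAD54B and FANCI had none matched) and 14208 genes of the table, a gene counting once if any of its windows held a match. The 8-letter forms TTTCCCGC and TTTGGCGC, chosen first, were in the windows of XRCC2 and FANCC, 7.41% of the members, and of 3.79% of all genes. These 2 members had a median difference of -0.16 and the 25 without the forms -0.11, with 1 and 14 of them lower. For all genes the medians were -0.02 with the forms and -0.03 without. The 7-letter core, added after the values were seen and contained in those forms, was in 14 members, 51.9%, against 15.2% of all genes. The 14 with it had a median difference of -0.22 and the 13 without it 0.02, while over all genes the medians were -0.03 with it and -0.03 without. Of the 14, 9 were lower, and of the 13, 6, against 54.5% of all genes with it and 54.6% without. EXO1 and CHEK1 were among those without it, and FANCL, the highest member, among those with it. CCAAT was in 15 members (55.6%, all genes 42.2%), with medians of -0.18 with it and 0.03 without. Of these 15 members 9 were lower, and of the 12 without it 6. Over all genes the medians were -0.02 with CCAAT and -0.03 without. CHR-type letters were in 5 members (18.5%, all genes 24.3%), with medians of -0.32 with them and -0.07 without. Of these 5 members 3 were lower, and of the 22 without them 12. For all genes the medians were -0.02 with CHR-type letters and -0.03 without. The median GC content of the windows was 63.0% in the members and 62.7% in all genes. A match is a description of letters and says nothing about binding.

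The arrays as a whole gave similar scales, with column medians of 6.73 and 6.71. ABCB1, the efflux pump named in the study's title, stood far higher in EBC1-R, at 12.65 against 5.37 in EBC1, a level not shown to exceed background, and MET was level (13.17 and 13.21). Epithelial markers were bright on both arrays, among them EPCAM (11.33 and 11.25) and CDH1 (11.96 and 12.06). Of these 7 markers, 3 keratins were at least 1.5-fold lower in EBC1-R: KRT19 1.86-fold, KRT8 1.77-fold and KRT18 1.72-fold. The line is catalogued as a squamous carcinoma, yet all 5 measured squamous markers were under the level filter on both arrays, with KRT5 at 6.17 and 6.11. None of 10 leukocyte, 9 fibroblast and 8 endothelial markers was 1.5-fold different. Of these markers 2 were above the level filter, CD68 (11.04 and 11.45) among the leukocyte and COL1A1 (7.64 and 7.61) among the fibroblast markers. The others lay under it, such as PTPRC at 4.56 and 4.65, DCN at 4.77 and 4.70 and PECAM1 at 4.84 and 4.91.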

How the data were processed

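Total RNA from frozen cells was labelled as biotinylated cDNA and hybridised to 1 array per group, per the labels' protocols. The deposited values, 1 for every probe set on each array, range from 4.21 to 14.2 and were read as log2 intensities on that basis. Not given in the sources used here are the log base and how the authors corrected, summarized and scaled them. Once sorted, both columns differed by at most 0.17, a sign of scaling to a shared distribution, which removes any change shared by most genes. The labels name an older array type than the one whose annotation matches the 28869 identifiers. No detection calls were used, so low values are not separated from background.

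Of the probe sets, 19310 had 1 gene symbol, 1752 several and 7807 none. RefSeq held the gene identifiers of 19279 of the first and changed 0 symbols, and probe sets of a gene were averaged (Python 3.11.15, pandas 2.3.3). Calls are differences of at least 1.5-fold or 2-fold, without a test. The members and lists were chosen with earlier results of these data known. All members are named, of other lists up to 4 genes with the largest difference, and neighbours where at least 3 of 10 differed 1.5-fold in 1 direction. Genes named outside this rule were chosen after their values were seen. The functions were tested on simulated data with added shifts larger than any member's difference, so recovery of differences of the members' size was not tested. Alternatives were quantile normalization, median centring, a lowess trend (span 0.2), 16 added on the linear scale, the brightest probe set, probe sets with several symbols, and filters on the higher or mean value.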

Additional observations from a re-analysis of the deposited data

How the results depend on the processing

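No paired analysis was possible because each group has 1 array, and no replicate could be left out. Under quantile normalization 4 members were at least 1.5-fold lower, BRCA1 and RAD54L joining EXO1 and CHEK1, and with the lowess trend removed 3 were, with BRCA1. Under the other 6 alternatives EXO1 and CHEK1 alone passed. Among these, the level filters, the brightest probe set and the probe sets with several symbols cannot change the value of any of the 30. No member was 1.5-fold higher under any of the 8, and the median difference over the measured members ran from -0.15 to -0.09. None of the 30 members changed sign under the 6 alternatives that recompute single genes, and none moved by as much as 0.16, the SD between probe sets of 1 gene. For the brightest probe set and the probe sets with several symbols this was fixed in advance, since each member has 1 probe set. Median centring shifts all genes by the same amount. The median of the 4 damage kinases, -0.02, was 0.15 over the 3 above either level filter, since CHEK2 drops out. Counts near 1.5-fold therefore depend on the scaling, and differences of FANCB, FANCM, CHEK2 and RAD54B on low intensities.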

Other observations

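Other repair pathways held mostly small differences between the arrays. For comparison, 43.3% of all genes were higher in EBC1-R, 4.41% at least 1.5-fold. All 5 measured mismatch repair genes were higher in EBC1-R, none of them 1.5-fold, with a median of 0.26: PMS2 went from 8.75 to 9.12, PMS1 from 8.72 to 9.04 and MSH6, which recognises single mismatches, from 7.90 to 8.16. Of 11 end joining genes, which rejoin breaks without a template, 8 were higher, with a median of 0.20. NHEJ1, a scaffold of the ligation step, was 1.57-fold higher (8.35 and 9.01) and its partner XRCC4 1.32-fold (7.63 and 8.03). All 8 translesion synthesis genes stayed under 1.5-fold, 4 in either direction.

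Excision repair held members on both sides, as did the whole table, where 43.3% of genes were higher and 55.5% lower. ERCC2, a helicase of nucleotide excision repair, was 1.55-fold higher (8.67 and 9.30), and 11 of 16 genes of that list were higher. In base excision repair 10 of 17 genes were lower, with a median of -0.07. There the glycosylase gene NEIL3 was 1.55-fold lower (8.92 and 8.28) and XRCC1 1.42-fold lower (10.01 and 9.50), while XRCC1's ligase partner LIG3 was 1.40-fold higher (8.90 and 9.39). Differences between these lists were not tested.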
